A study of Mus musculus with 4 samples.

Results

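The 10 genes described here belong to the responses of a cell to stress in the endoplasmic reticulum (ER) and to a shortage of amino acids: Hspa5, Hsp90b1, Xbp1, Atf4, Ddit3, Atf3, Trib3, Chac1, Asns and Sesn2. They were chosen by name, from the Ensembl identifiers of the count files matched to symbols in the GENCODE annotation of the mouse genome mm10, and are 10 of 55421 genes listed in each file. With FGF2 in the medium, Atf3 mRNA was 3.55-fold higher, while Asns, Sesn2, Xbp1 and Hspa5 were lower by 1.27-, 1.34-, 1.19- and 1.1-fold. The calls of Xbp1 and Hspa5 were lost with another tool and when single libraries were left out, and that of Sesn2 was lost when 1 library was left out. The other 5 genes did not pass the test.

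RNA was measured by total RNA-seq in cultures of prefrontal cortex (PFC) from wild-type C57BL/6 mice at postnatal day 0 (P0). The tissue was dissociated with papain and grown for 10 days in Neurobasal medium with B27 and GlutaMAX, in 2 groups of 2 libraries each: the FGF2 group had 5 ng/mL FGF2 (basic fibroblast growth factor, a mitogen of neural progenitors and glia) and the noFGF2 group did not. The mice of both groups carried no engineered allele, and the labels name no treatment other than FGF2, so no agent that provokes ER stress or removes an amino acid is part of the design. The comparison asks whether an effect of FGF2 seen by the study in human cultures is also found in mouse. The study describes the repeats of its samples as technical apart from 2 human stages, so the p-values may cover only the spread between libraries and not that between cultures.

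Proteins of the secretory pathway fold in the ER with the help of chaperones, and 3 membrane sensors (IRE1, PERK and ATF6) start the unfolded protein response when folding lags behind. PERK, and the amino acid sensor GCN2, phosphorylate the translation factor eIF2 alpha. This slows protein synthesis but favours translation of the transcription factor ATF4, which induces genes of amino acid synthesis and transport and, with CHOP (the product of Ddit3), genes of feedback and cell death. Counts per gene do not show the splicing of Xbp1 mRNA by IRE1, nor the translation of Atf4 mRNA, through which much of the control of these genes runs.

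Reads counted on genes came to between 9166432 and 10799886 per library. All 10 genes passed the filter on low counts. Levels are given as CPM, the counts of a gene in each library brought to a common library total with TMM scaling factors, and differences as log2 fold changes of FGF2 over noFGF2 with their standard error (SE) and the adjusted p of edgeR's quasi-likelihood test over 17144 tested genes, with 0.05 as the threshold. The labelled tissue carried its markers: the 6 neuronal genes (among them Tubb3, Map2 and Snap25) summed to between 2669 and 3712 CPM and the 6 astrocyte genes (among them Gfap and Aqp4) to between 5991 and 10580 CPM. The 5 endothelial genes summed to between 4.07 and 7.67 CPM, and 1 of them, Cldn5, was at 0 in all 4 libraries. Marker levels of the cell types moved with the treatment. All 6 neuronal genes fell with FGF2, 5 of 6 astrocyte genes rose, and all 5 tested genes of the oligodendrocyte lineage rose, from a sum of 380.7 and 390.6 CPM without FGF2 to 1384 and 1391 CPM with it. In such bulk samples fewer cells of a type and less RNA per cell cannot be told apart, and the part of cell make-up in the differences below was not tested.

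Over all tested genes, 20.7% were called higher and 19.9% lower with FGF2. Of the 10 genes, 1 was called higher and 4 were called lower. Both libraries of a group lay above both of the other for 4 genes in the higher direction (Atf3, Hsp90b1, Ddit3 and Chac1) and for 4 in the lower direction (Hspa5, Xbp1, Asns and Sesn2). The same was true of 33.6% and 33.4% of all tested genes, so such a split was common in these libraries. The median log2 fold change was -0.048 over the 10 genes and -0.001 over all tested genes.

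**Figure D1:**
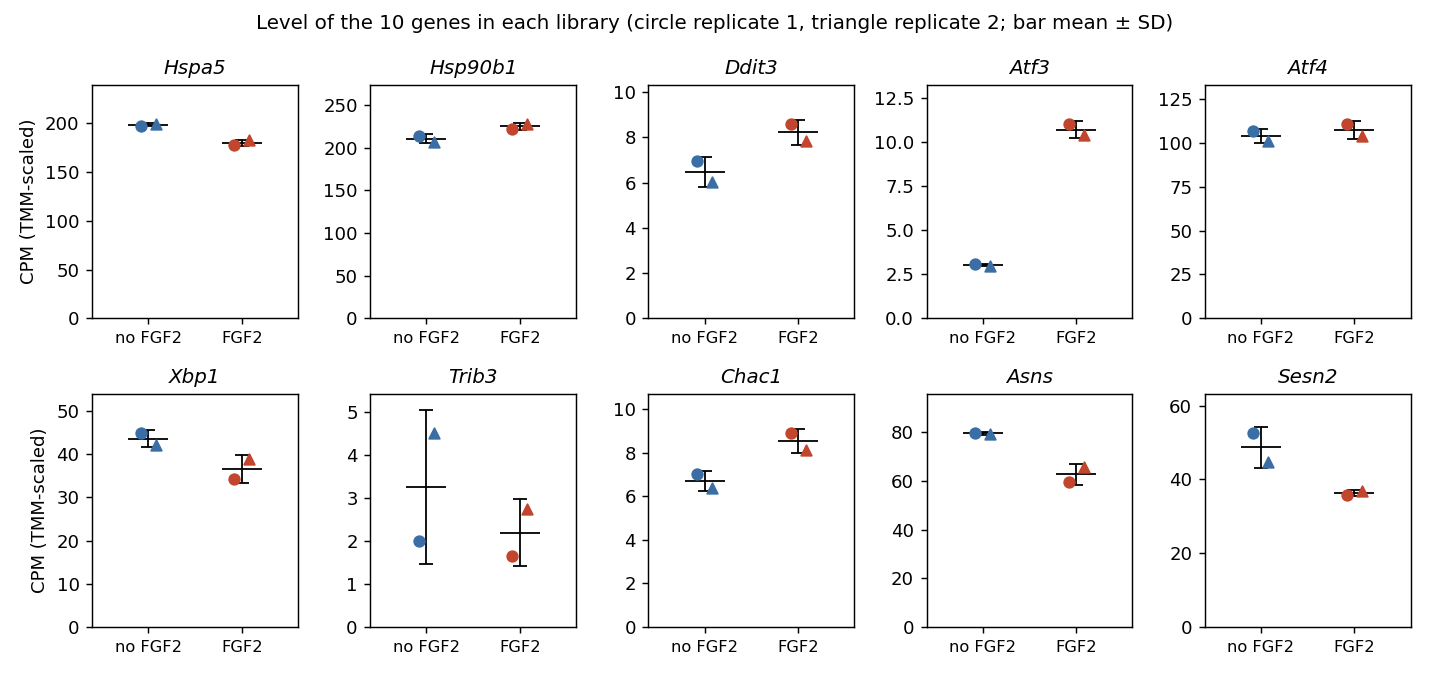
Level of each of the 10 genes (CPM) in the 2 libraries with FGF2 and the 2 without, one point per library, with bars for the mean ± SD. The libraries of a group do not overlap with those of the other for any gene but Atf4 and Trib3, and Atf3 shows the largest ratio between groups, from about 3 CPM without FGF2 to between 10.37 and 11.02 CPM with it.

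**Figure D2:**
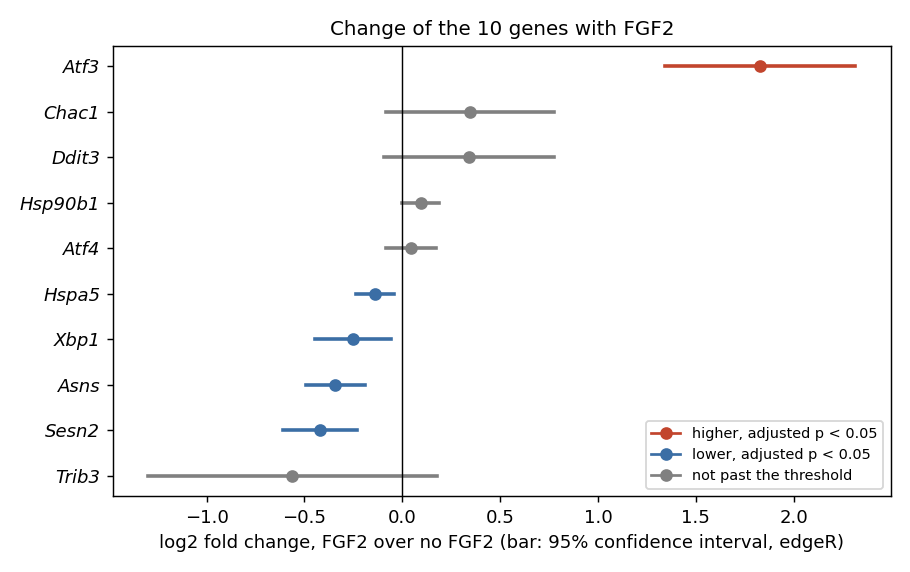
Log2 fold change (FGF2 over noFGF2) of each of the 10 genes, with the 95% confidence interval from the edgeR fit. Atf3 stands alone at 1.83, Asns, Sesn2, Xbp1 and Hspa5 lie below 0 with intervals that leave out 0, and the interval of Trib3 is the widest, from -1.30 to 0.18.

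Hspa5 (chr2:34771970-34777547, plus strand) encodes BiP, the HSP70 of the ER lumen that also holds the 3 sensors inactive. Hsp90b1 (chr10:86690209-86705509, minus strand) encodes GRP94, the HSP90 of the ER. Both are textbook targets of ATF6 through the ER stress element (ERSE), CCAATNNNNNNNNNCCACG. Promoter windows from RefSeq (GRCm38.p6, 250 bases before to 50 bases after the start) were searched for these letters on both strands, and 39 of 32851 windows, or 0.119%, held a match. Hspa5 and Hsp90b1 were the only members among them, Hspa5 with 1 match from -65 to -47 relative to the start and Hsp90b1 with 2, from -212 to -194 and, on the reverse strand, from -107 to -89. The windows of both are printed on the gene's strand, 5′ to 3′, with the matches in capitals, since no other of the 10 windows held an exact match. Stretches that differ from the element by a letter were not sought, so the other promoters may still hold a variant of it. That of Hspa5 is chr2:34771840-34772139 (plus strand) and that of Hsp90b1 is chr10:86705395-86705694 (minus strand).
Hspa5: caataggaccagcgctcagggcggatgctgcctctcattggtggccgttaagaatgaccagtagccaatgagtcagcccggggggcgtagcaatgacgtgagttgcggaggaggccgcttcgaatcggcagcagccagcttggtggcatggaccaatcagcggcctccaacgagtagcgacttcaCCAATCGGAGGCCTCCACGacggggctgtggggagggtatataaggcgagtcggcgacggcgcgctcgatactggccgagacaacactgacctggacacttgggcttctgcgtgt
Hsp90b1: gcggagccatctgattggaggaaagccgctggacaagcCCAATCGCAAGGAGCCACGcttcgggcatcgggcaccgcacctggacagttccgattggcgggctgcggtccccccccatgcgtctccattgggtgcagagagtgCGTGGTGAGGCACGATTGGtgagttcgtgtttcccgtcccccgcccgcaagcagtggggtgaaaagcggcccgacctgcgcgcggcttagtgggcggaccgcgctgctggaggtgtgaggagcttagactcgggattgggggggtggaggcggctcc

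Hspa5 was counted at 177.9 and 182.5 CPM in the FGF2 libraries and at 197.7 and 199.6 CPM in the noFGF2 libraries. Both FGF2 libraries were thus the lower ones, at 180.2 ± 3.28 CPM (SD, n = 2) against 198.6 ± 1.36 CPM (SD, n = 2). Hspa5 fell by 0.14 on the log2 scale (SE 0.05, edgeR adjusted p = 0.0159), and 71.8% of all tested genes changed by more. The call was lost with DESeq2 (adjusted p = 0.131) and in the fits without FGF2 replicate 1, noFGF2 replicate 1 or noFGF2 replicate 2 (edgeR adjusted p between 0.0706 and 0.128) and held without FGF2 replicate 2, with the difference between -0.162 and -0.126 over the 4 fits that left out a library.

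Hsp90b1 went the other way in its values, with 222.1 and 228.2 CPM with FGF2 and 214.3 and 207.4 CPM without. The FGF2 libraries were higher without overlap, but the log2 difference of 0.10 (SE 0.05, 95% interval 0.001 to 0.188) did not pass the test (edgeR adjusted p = 0.102). The counts of Hsp90b1 may miss some reads, since 5.4% of its exonic bases are shared with Gm15344 and Gm25745 on the same strand and 10.3% lie opposite 1810014B01Rik. The ratio of the counts of the 2 chaperones within a library does not depend on scaling. Hspa5 had 0.801 and 0.800 counts per count of Hsp90b1 in the FGF2 libraries and 0.922 and 0.963 in the noFGF2 libraries. In both FGF2 libraries Hspa5 was thus lower for each Hsp90b1 count, a difference that was not tested. With GC and length offsets the log2 difference of Hsp90b1 was 0.024 (edgeR adjusted p = 0.725) and that of Hspa5 was -0.156.

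Xbp1 (chr11:5520659-5525893, plus strand) encodes the transcription factor that IRE1 activates by splicing its mRNA, and induces genes of ER expansion and of the degradation of misfolded proteins. Its level was 34.27 and 38.94 CPM with FGF2 and 45.02 and 42.21 CPM without. Every FGF2 library lay below every noFGF2 library. The log2 fold change of Xbp1 was -0.25 (SE 0.10, edgeR adjusted p = 0.0303), a size that 54.1% of tested genes exceeded. This call was lost with DESeq2 (adjusted p = 0.252), without the expression filter (edgeR adjusted p = 0.0524) and in the fits without FGF2 replicate 1, noFGF2 replicate 1 or noFGF2 replicate 2 (edgeR adjusted p between 0.054 and 0.262), and over all 4 fits that left out a library the difference ran from -0.35 to -0.167. Per count of Hspa5 there were 0.193 and 0.213 counts of Xbp1 with FGF2 and 0.228 and 0.211 without. These ratios overlapped between the groups.

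The transcription factors of the eIF2 alpha branch did not move together. Atf4 (chr15:80255184-80257541, plus strand), the central factor of the response, was counted at 111.1 and 104.1 CPM with FGF2 and 107.2 and 101.4 CPM without. The groups overlapped. Its log2 difference was 0.04 (SE 0.07, edgeR adjusted p = 0.63), with a 95% interval from -0.082 to 0.171, and the sign turned to -0.006 without FGF2 replicate 1.

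Ddit3 (chr10:127290774-127296288, plus strand), the gene of CHOP, had 78 and 77 counts with FGF2 and 73 and 65 counts without, or 8.60 and 7.83 against 6.95 and 6.00 CPM. Both FGF2 libraries were higher, yet with counts this low the log2 difference of 0.34 (SE 0.22) did not pass the test (edgeR adjusted p = 0.223). The 95% interval of Ddit3 ran from -0.094 to 0.777. Its symbol is carried by 2 identifiers in the annotation, and the second was at 0 counts in all libraries. Its 105 exonic bases all lie within the other and make up 6.1% of the exonic bases of Ddit3, and reads on them can be assigned to neither.

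Atf3 (chr1:191170296-191218039, minus strand), an immediate-early and stress-induced factor of the ATF/CREB family that also restrains inflammatory genes, was the member that changed most. It had 100 and 102 counts in the FGF2 libraries and 32 and 32 counts in the noFGF2 libraries, or 11.02 and 10.37 CPM against 3.05 and 2.96 CPM. The exact Poisson 95% intervals of the counts, which cover counting error only, ran from 81.4 to 124 with FGF2 and from 21.9 to 45.2 without, and did not meet. Atf3 rose by 1.83 on the log2 scale (SE 0.25, edgeR adjusted p = 1.9e-12), and 2.28% of all tested genes changed by more. Every alternative fit called it higher, at between 1.78 and 1.87. For each count of Atf4 there were 0.0992 and 0.0996 counts of Atf3 with FGF2 and 0.0284 and 0.0291 without, so this ratio was higher in both FGF2 libraries.

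The 4 genes left are targets of ATF4, as are Ddit3 and Atf3, of which Atf3 was called higher. Of these 4, Asns and Sesn2 were called lower, while Chac1 and Trib3 did not pass the test. Differences between these genes were not tested. Asns (chr6:7675169-7693254, minus strand) encodes asparagine synthetase, which makes asparagine from aspartate, and Chac1 (chr2:119351229-119354381, plus strand) an enzyme that breaks down glutathione. Trib3 (chr2:152337422-152344032, minus strand) encodes a pseudokinase that inhibits ATF4 and CHOP, and Sesn2 (chr4:132492032-132510501, minus strand) encodes sestrin 2, a leucine sensor that restrains mTORC1. ATF4 binds with C/EBP proteins to the CARE element, searched here as TGATGNAA. This was in 1304 of 32851 promoter windows, or 3.97%, and in 4 of the 10: Asns (from -23 to -16), Atf3 (from -110 to -103, reverse strand), Chac1 (from -193 to -186, reverse strand) and Trib3 (from 15 to 22, reverse strand, after the start). ERSE-II (ATTGGNCCACG), UPRE (TGACGTGG) and CRE (TGACGTCA) were in none of the 10 windows and in 0.0365%, 0.676% and 1.79% of all. A match is a description of letters and not of a bound site. The windows of Asns (chr6:7693160-7693459, minus strand) and Atf3 (chr1:191183284-191183583, minus strand) are printed because their mRNAs moved in opposite directions with the same element in the window. That of Chac1 (chr2:119350992-119351291, plus strand) is printed as a target that did not pass the test. The window of Atf3 lies inside the annotated gene, which reaches 191218039, so the region before its furthest upstream start was not searched. Capitals mark the CARE letters.
Asns: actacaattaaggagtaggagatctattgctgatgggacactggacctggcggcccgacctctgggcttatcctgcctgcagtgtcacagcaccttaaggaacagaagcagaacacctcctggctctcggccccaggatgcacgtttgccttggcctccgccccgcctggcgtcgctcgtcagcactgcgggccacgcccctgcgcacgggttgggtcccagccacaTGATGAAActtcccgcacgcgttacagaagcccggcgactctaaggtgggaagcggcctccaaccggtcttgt
Atf3: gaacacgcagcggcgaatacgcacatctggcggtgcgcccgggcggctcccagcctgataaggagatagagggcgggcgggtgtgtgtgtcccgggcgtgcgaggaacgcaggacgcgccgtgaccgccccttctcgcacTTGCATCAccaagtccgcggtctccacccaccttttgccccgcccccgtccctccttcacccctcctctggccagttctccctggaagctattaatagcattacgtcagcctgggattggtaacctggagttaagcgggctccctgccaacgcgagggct
Chac1: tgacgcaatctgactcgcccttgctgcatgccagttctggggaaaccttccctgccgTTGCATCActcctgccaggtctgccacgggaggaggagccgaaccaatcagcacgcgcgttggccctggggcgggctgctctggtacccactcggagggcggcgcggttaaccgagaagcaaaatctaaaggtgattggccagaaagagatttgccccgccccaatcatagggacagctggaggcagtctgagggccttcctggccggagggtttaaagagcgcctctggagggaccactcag

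**Figure D3:**
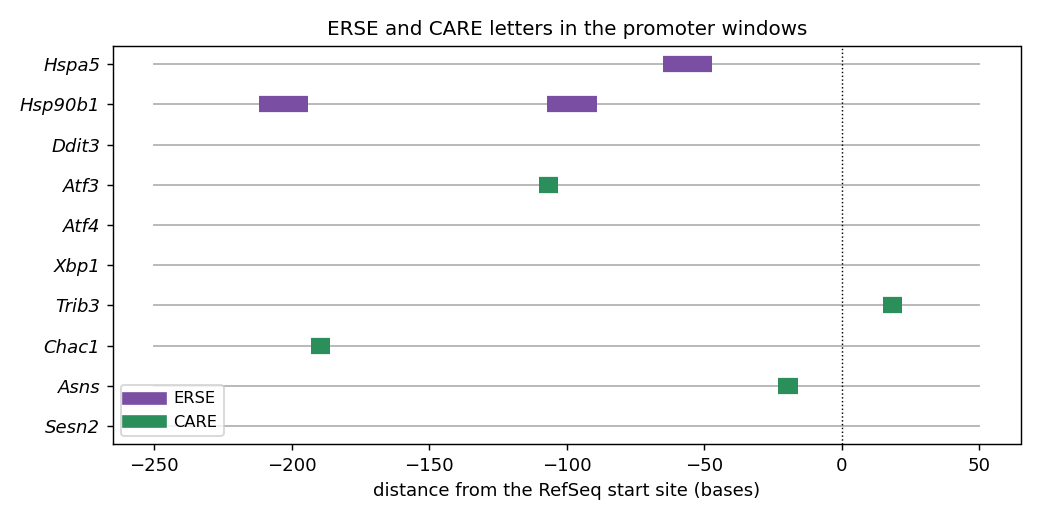
Position of each motif match in the RefSeq promoter windows of the 10 genes, as distance in bases from the RefSeq start site (dotted line). ERSE matches lie in Hspa5 (1) and Hsp90b1 (2), CARE matches in Atf3, Trib3, Chac1 and Asns, and the windows of Ddit3, Atf4, Xbp1 and Sesn2 hold no exact match of either.

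Asns was at 59.73 and 65.68 CPM with FGF2 and at 79.95 and 79.25 CPM without, with both FGF2 libraries well below the others. It fell by 0.34 on the log2 scale (SE 0.08, edgeR adjusted p = 4.3e-05), and was called under every alternative, with values between -0.417 and -0.281. Per count of Atf4 its ratio was 0.538 and 0.631 with FGF2 against 0.746 and 0.781 without, again without overlap.

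Sesn2 had 35.82 and 37.01 CPM with FGF2 and 52.73 and 44.80 CPM without. The FGF2 libraries were lower and closer to each other, at 36.41 ± 0.843 CPM (SD, n = 2) against 48.76 ± 5.61 CPM (SD, n = 2). Sesn2 fell by 0.42 on the log2 scale (SE 0.10, edgeR adjusted p = 6.7e-05). Without noFGF2 replicate 1 the difference was -0.303 and missed the threshold (edgeR adjusted p = 0.0516). Per count of Atf4, Sesn2 stood at 0.322 and 0.355 with FGF2 and at 0.492 and 0.442 without.

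Chac1 was at 8.93 and 8.13 CPM with FGF2 and at 7.04 and 6.37 CPM without. The FGF2 libraries were the higher ones, but at 81, 80, 74 and 69 counts the log2 difference of 0.35 (SE 0.22, 95% interval -0.082 to 0.773) did not pass the test (edgeR adjusted p = 0.209). For every count of Asns there were 0.149 and 0.124 counts of Chac1 with FGF2 and 0.0881 and 0.0804 without, so the ratio of these 2 genes was higher in both FGF2 libraries.

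Trib3 was the least certain, with 15 and 27 counts in the FGF2 libraries and 21 and 49 in the noFGF2 libraries. The replicates of each group were further apart than the groups, at 1.65 and 2.75 CPM against 2.00 and 4.53 CPM. The log2 difference of Trib3 was -0.56 (SE 0.38, edgeR adjusted p = 0.239) with an interval from -1.298 to 0.175, and it changed sign, to 0.141, without noFGF2 replicate 2.

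Levels of different genes were compared per kilobase of countable exon. This length takes in the exons of every annotated transcript and can exceed that of the longest one. It was 1608 bases against 969 for Ddit3 and 3248 against 2129 for Xbp1, but 1637 in both for Chac1. The order of genes close in level therefore depends on the length used. In the noFGF2 libraries Hsp90b1 was highest at 55.3 CPM per kb, followed by Hspa5 (47.0), Atf4 (44.2), Asns (29.1), Sesn2 (14.0), Xbp1 (13.4), Chac1 (4.10), Ddit3 (4.03), Trib3 (1.54) and Atf3 (1.39), each the mean CPM per kb of 2 libraries. In this order Sesn2 and Xbp1, Chac1 and Ddit3, and Trib3 and Atf3 overlapped between libraries and do not differ beyond their spread on this length scale. With FGF2 the level of Atf3 was 4.97 ± 0.213 CPM per kb (SD, n = 2), and the libraries of Atf3 then overlapped with those of Ddit3 at 5.11 ± 0.337 (SD, n = 2). Trib3 was last, at 1.03 CPM per kb. Atf4 at 45.6 and Hspa5 at 42.6 CPM per kb changed places, and the libraries of these 2 did not overlap in either group.

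**Figure D4:**
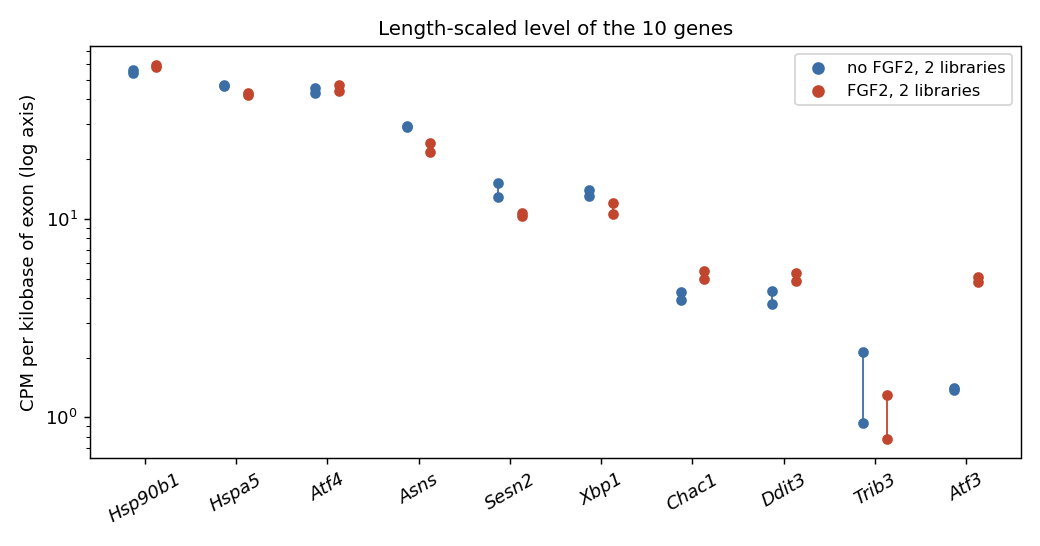
Level of each of the 10 genes per kilobase of countable exon (CPM per kb, log axis) without and with FGF2, with 1 point per library and a line joining the 2 libraries of a group. Hsp90b1, Hspa5 and Atf4 lead in both groups, and on this length scale Atf3 moves from last place (1.39) to the level of Ddit3 and Chac1 (about 5).

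The rest of the pathway was read from lists written for this comparison, without a set test and with the members of the group of 10 left in each list. The counts of each list stand beside shares of 20.7% called higher and 19.9% called lower over all tested genes, and were not tested against them. Of 18 tested ER chaperones and folding enzymes, 5 rose and 3 fell, Hspa5 among the latter. With DESeq2 these counts were 4 and 1, and the count of genes that fell was also 1 without noFGF2 replicate 1 or noFGF2 replicate 2. The protein disulfide isomerase gene Pdia4 rose by 0.71 (SE 0.06, edgeR adjusted p = 1.9e-36), from 123 and 116 to 206 and 185 CPM. The lectin chaperone Canx rose by 0.36 (edgeR adjusted p = 4.0e-19) and P4hb, the beta subunit of prolyl 4-hydroxylase and itself a disulfide isomerase, by 0.36 (edgeR adjusted p = 3.9e-09). Ero1lb, an ER oxidase, fell by 0.49 on the log2 scale (edgeR adjusted p = 3.2e-04), and Hyou1, an exchange factor for BiP, by 0.19 (edgeR adjusted p = 0.0151). The call of Hyou1 was lost with DESeq2 and with GC and length offsets (edgeR adjusted p = 0.0894). The lectin Calr, close to Canx in its role, stood at a log2 difference of 0.006.

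Of the 10 tested sensors and transducers, 5 rose and 2 fell, Xbp1 among the latter. With DESeq2 the counts were 1 and 0, the count that rose was 3 with upper quartile scaling or without either FGF2 library, 1 without noFGF2 replicate 1 and 2 without noFGF2 replicate 2, and the count that fell was 1 without the expression filter, FGF2 replicate 1 or noFGF2 replicate 1 and 0 without noFGF2 replicate 2. Creb3l2, an ER-anchored factor of the ATF6 type, rose by 1.52 on the log2 scale (SE 0.08, edgeR adjusted p = 3.2e-79), from 38.6 and 36.7 to 102 and 114 CPM. The gene of PERK, Eif2ak3, rose by 0.29 (edgeR adjusted p = 0.0177) and Atf6b fell by 0.29 on the log2 scale (edgeR adjusted p = 0.0069), both calls lost with DESeq2. That of Atf6b was also lost with GC and length offsets (edgeR adjusted p = 0.0973). Ern1, which encodes IRE1 alpha, had a log2 difference of -0.011. In the list of ER-associated degradation 3 of 11 tested genes rose and 0 fell. The count that rose was 1 with DESeq2 and 2 with upper quartile or total count scaling, without the expression filter, or without any single library, and 1 gene was called lower with GC and length offsets. Os9, a lectin that delivers misfolded glycoproteins, rose by 0.26 (edgeR adjusted p = 4.8e-04). The UPR targets Herpud1 (0.17, edgeR adjusted p = 0.259) and Dnajb9 (0.12, edgeR adjusted p = 0.346) did not pass the test.

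Among 11 tested genes of the eIF2 alpha kinases, phosphatase and translation control, 4 rose and 0 fell. The count that rose was 2 with DESeq2 or without noFGF2 replicate 2, and 1 gene was called lower with upper quartile or total count scaling or without FGF2 replicate 2. Ppp1r15a, which encodes GADD34, the phosphatase subunit that reverses eIF2 alpha phosphorylation, rose by 0.62 (SE 0.12, edgeR adjusted p = 2.9e-06). Of 13 tested stress factors and feedback genes, of which 6 belong to the group of 10, 4 rose and 2 fell, against 3 and 1 with DESeq2, and 1 fell without noFGF2 replicate 1. Nupr1, a small stress-induced chromatin protein, had 118 and 99 counts with FGF2 and 24 and 28 counts without, a rise of 2.23 (SE 0.25, edgeR adjusted p = 2.7e-17). Cebpg, a partner of ATF4 on CARE elements, rose by 0.45 (edgeR adjusted p = 1.8e-04), and Ddit4, an mTORC1 inhibitor, fell by 0.46 on the log2 scale (edgeR adjusted p = 0.00164), a call lost with DESeq2. The median log2 fold changes over the tested genes of these lists were 0.157 (sensors), 0.039 (chaperones), 0.093 (degradation), 0.168 (eIF2 alpha) and 0.109 (stress factors), against -0.001 over all tested genes.

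Of 12 tested genes of amino acid synthesis, 3 rose and 2 fell, Asns among the latter. The counts were 2 and 1 with DESeq2 and also without FGF2 replicate 1 or noFGF2 replicate 1, and 1 fell without noFGF2 replicate 2. Aldh1l2, which encodes a mitochondrial folate enzyme and does not itself make an amino acid, had the largest rise of the list, by 1.12 (SE 0.08, edgeR adjusted p = 8.2e-43). The counts of Aldh1l2 are less certain, since 1056 of its bases are identical to D10Wsu102e, which had between 2991 and 3997 counts per library. Phgdh, which opens serine synthesis, rose by 0.27 (edgeR adjusted p = 4.0e-07). Mthfd2, another mitochondrial folate enzyme, fell by 0.51 on the log2 scale (edgeR adjusted p = 0.0121), a call lost with DESeq2. Of 10 tested transporters, 2 rose and 6 fell, with a median of -0.272. With DESeq2 the counts were 1 and 3, the count that rose was 1 also with upper quartile scaling, with GC and length offsets or without either replicate 2, and the count that fell was 3 without noFGF2 replicate 1. It was 4 with GC and length offsets and 4 without noFGF2 replicate 2. Slc7a5, the light chain of the leucine transporter LAT1, fell by 0.45 on the log2 scale (SE 0.06, edgeR adjusted p = 6.5e-12), from 135 and 139 to 105 and 96.6 CPM. Slc1a4, a carrier of serine and alanine, fell by 0.44 on the log2 scale (edgeR adjusted p = 3.9e-13), whereas Slc38a2, the SNAT2 transporter of neutral amino acids, rose by 0.41 (edgeR adjusted p = 1.9e-10). Of 13 tested genes, which are aminoacyl-tRNA synthetases and the tRNA export factor Xpot, 1 rose and 2 fell. The count that fell was 5 with upper quartile scaling and 4 with total count scaling. It was 1 with DESeq2, without the expression filter or with GC and length offsets, and also moved when noFGF2 replicate 2 was left out. Of 11 tested heat shock genes 3 rose and 3 fell, against 2 and 1 with DESeq2. These counts also moved when either replicate 2 or noFGF2 replicate 1 was left out. Hspd1 and Hspe1, both among the genes that fell, encode mitochondrial chaperonins, so this list is not only cytosolic. The counts of Phgdh are less certain, since several other annotated genes, all at 8 counts or fewer in each library, are nearly identical to it over 100 bases or more. Ero1lb and Eif2ak3 each have 1 such near copy, Gm18562 with at most 6 counts and Gm43292 with 0.

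**Figure D5:**
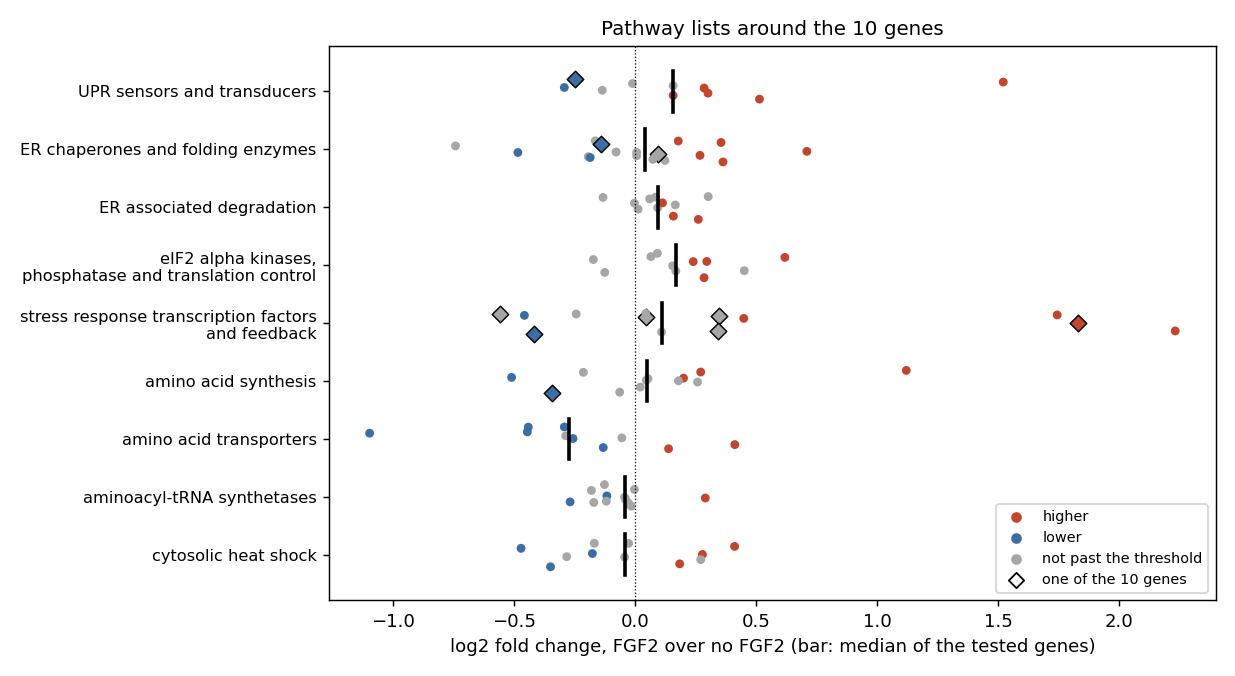
Log2 fold change (FGF2 over noFGF2) of every tested gene in the 9 pathway lists, one point per gene, coloured by its call, with diamonds for the 10 genes and a bar for the median of each list. The medians lie between -0.272 (amino acid transporters) and 0.168 (eIF2 alpha kinases, phosphatase and translation control).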

How the data were processed

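RNA was measured in 4 libraries, 2 from P0 mouse PFC cultures with FGF2 and 2 without. The deposited files hold raw read counts per Ensembl gene, which the authors made by aligning reads to mm10 with HISAT2 2.1.0, keeping alignments by mapping quality with Samtools and counting with HTSeq 0.11.2. The strand setting and annotation release of the counting are not given in the sources used here. The 5 tallies that name no gene were left out of totals and tests. Reads on no feature were 43.2% to 45.9% of all those tallied.

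Of 55421 identifiers, 55240 matched GENCODE M21. Counts were tested with edgeR 4.0.16 (R 4.3.3; TMM, filterByExpr, robust quasi-likelihood) over 17144 genes with Benjamini-Hochberg adjustment. The samples were grouped by the treatment in their labels. Alternatives were DESeq2 1.42.0, limma-voom (limma 3.58.1), other scalings and filters, GC and length offsets, the replicate number as a block, and leaving out each library. A count of 0 allows up to 3 counts, or 0.278 to 0.327 CPM. The exact Poisson intervals of counts cover counting error only, whereas the intervals of log2 fold changes come from the edgeR fit and include the spread between libraries.

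The 10 genes and the lists were chosen with earlier results of these data known. Beyond the 10 genes, up to 3 genes per list and direction were eligible to be named: those with the largest change, an adjusted p under 0.05, groups that did not overlap and an average level of 5 CPM or more. Genes that did not pass are named as contrasts and were chosen after their values were seen. Near copies were sought as matches of at least 100 bases at 95% identity. Promoter windows are from RefSeq (GRCm38.p6, the assembly of mm10).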

Additional observations from a re-analysis of the deposited data

How the results depend on the processing

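The call for Atf3 (higher) and for Asns (lower) held under all alternatives. With DESeq2, 2068 genes were called higher and 1939 lower, against 3541 and 3408, and 2 of the 10 genes were called lower in place of 4, since Hspa5 (-0.144, adjusted p = 0.131) and Xbp1 (-0.255, adjusted p = 0.252) missed the threshold. DESeq2 gave no adjusted p for 11821 of 29100 genes. Without the expression filter Xbp1 (-0.246, edgeR adjusted p = 0.0524) was not called. Leaving out 1 library, which assumes that the lone sample varies like the others, the count of the 10 genes called lower ran from 1 (without noFGF2 replicate 1) to 4, with 2 without FGF2 replicate 1 or noFGF2 replicate 2, and that called higher stayed at 1. All genes called higher ran from 2642 to 3145 and lower from 2558 to 3054. Over these fits the log2 differences were -0.162 to -0.126 for Hspa5, -0.350 to -0.167 for Xbp1, -0.417 to -0.281 for Asns, -0.537 to -0.303 for Sesn2, 1.781 to 1.870 for Atf3, -0.006 to 0.089 for Atf4 and -1.032 to 0.141 for Trib3. The cause was not tested. Of 34 other named genes, 15 calls were lost with DESeq2 and 19 held throughout. With the replicate block 3476 genes were called higher and 3338 lower, and the calls of the 10 genes did not change (Hspa5 edgeR adjusted p = 0.022, Xbp1 0.0335). The numbers in the labels are not stated to mark a shared culture, and the deviations of same-numbered libraries were uncorrelated (r = 1.3e-05). Upper quartile scaling moved the median of all genes most, to -0.027, with 3270 called higher and 3713 lower. Ddit3, Chac1 and Trib3, with between 15 and 81 counts, have wide intervals at this depth.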

Other observations

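Microglia genes were low in these cultures but higher with FGF2, with 6 marker genes summing to 10.03 and 11.08 CPM in the FGF2 libraries and to 4.57 and 4.43 CPM in the noFGF2 libraries. Of these 6 genes, 2 passed the filter on low counts and both were called higher. Fibroblast and mural cell markers summed to 55.65 and 51.85 CPM with FGF2 and to 44.92 and 44.43 CPM without, and of 4 tested genes 1 rose and 2 fell. Endothelial markers summed to between 4.07 and 7.67 CPM in all 4 libraries.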
